A study of Mus musculus with 4 samples.

Results

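The hexose transporters described here are 6 of the 20819 condensed genes counted, Slc2a1, Slc2a2, Slc2a3, Slc2a5, Slc5a1 and Slc5a9. They were chosen by name, by their symbols in the mm9 annotation, and by no rule on a value. Earlier results of these data were known when they were chosen. A condensed gene is the union of the RefSeq exons of a locus, and reads with a unique placement on these exon blocks were counted. The study compared whole tissue of small intestine with whole tissue of colon by massively parallel sequencing on the SOLiD platform. All samples came from untreated C57BL/6 mice aged 9 to 10 weeks that were kept free of specified pathogens, and no allele or transgene is named for any of them. The methods of the study place the tissue in the jejunum and the distal colon and name 6 mice in total, without saying which mice went into which library. One pair of libraries, called cDNA fragmented, was made from polyadenylated RNA by SMART cDNA synthesis before fragmentation. The other pair, called RNA fragmented, was made with the SOLiD Whole Transcriptome Analysis Kit, in which RNA is broken before it is copied. The labels of the RNA fragmented libraries give RNA depleted of ribosomal RNA, while the methods of the study describe polyadenylated RNA for this protocol. The deposited RNA fragmented libraries also hold fewer reads than the study gives for its RNA fragmented data, so these may not be the same data. There is 1 library per tissue and protocol, 4 in all, so no replicate error could be calculated and no test between tissues was run. All intervals are 95% intervals for counting error only and cover no variation between animals. They treat reads as independent, which amplified reads are not, so they may be too narrow even for counting error.

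Hexoses cross cell membranes through a pair of protein families. Members of the SLC5 family couple the uptake of sugar to the inward movement of sodium ions and can therefore concentrate sugar, whereas members of the SLC2 family, the GLUT proteins, let sugar pass down its own gradient. In the absorptive cells of the small intestine, SGLT1 (Slc5a1) takes up glucose and galactose at the brush border, GLUT5 (Slc2a5) takes up fructose, and GLUT2 (Slc2a2) passes sugar on towards the blood. GLUT1 (Slc2a1) and GLUT3 (Slc2a3) supply glucose to many kinds of cells for their own use, and SGLT4 (Slc5a9) carries mannose, fructose and glucose.

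Unique placements numbered 22484041 (small intestine) and 24798934 (colon) in the cDNA fragmented libraries, and 2035386 and 3478387 in the RNA fragmented ones, so values from RNA fragmentation rest on fewer reads. Levels are given as RPKM, the reads on 1 kilobase of exon for each 1000000 reads with a unique placement. Of the markers of absorptive cells of the small intestine 8 of 8 were higher in that tissue, and of the markers of absorptive cells of the colon 5 of 5 were higher in colon, in both protocols by the study's 3-fold rule. Markers of pancreatic acinar cells, which make digestive enzymes, stood apart: the summed level of the 8 listed genes was 19.1 RPKM in small intestine and 782 in colon by cDNA fragmentation, and 2743 and 298 RPKM by RNA fragmentation. Of these genes, 7 passed the rule towards colon in the first protocol, 6 passed it towards small intestine in the second, and Amy2a5 had 0 reads in all 4 libraries. Smooth muscle markers summed to 202 and 746 RPKM by cDNA and to 171 and 1419 RPKM by RNA fragmentation, in small intestine and colon. In whole tissue, fewer cells of a type and less RNA per cell cannot be told apart.

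This rule asks for at least 3 times the RPKM of the other tissue after a penalty of 1 RPKM has been added to the divisor. By this rule, 3 of the 6 transporters (Slc5a1, Slc2a2 and Slc2a5) were higher in small intestine, 1 (Slc2a1) was higher in colon and 2 (Slc5a9 and Slc2a3) passed in neither direction. The calls were the same in both protocols, whereas those of the acinar markers were opposite. Over all genes present in at least 1 tissue, 2.73% passed towards small intestine and 3.19% towards colon by cDNA fragmentation (16466 genes). By RNA fragmentation, 3.71% passed towards small intestine and 6.52% towards colon (15080 genes). This balance depended on scaling: 450 genes against 525 by cDNA fragmentation became 585 against 347 with the median of ratios, and 560 against 983 by RNA fragmentation became 756 against 630. The median log2 ratio of small intestine to colon, with 0.1 RPKM added to each level, was 3.09 over the transporters and -0.36 over all genes by cDNA fragmentation. By RNA fragmentation these medians were 2.65 and -0.42. The summed level of the 6 transporters was 1483 RPKM in small intestine and 76.6 RPKM in colon by cDNA fragmentation, and 1377 and 110 RPKM by RNA fragmentation.

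**Figure D1:**
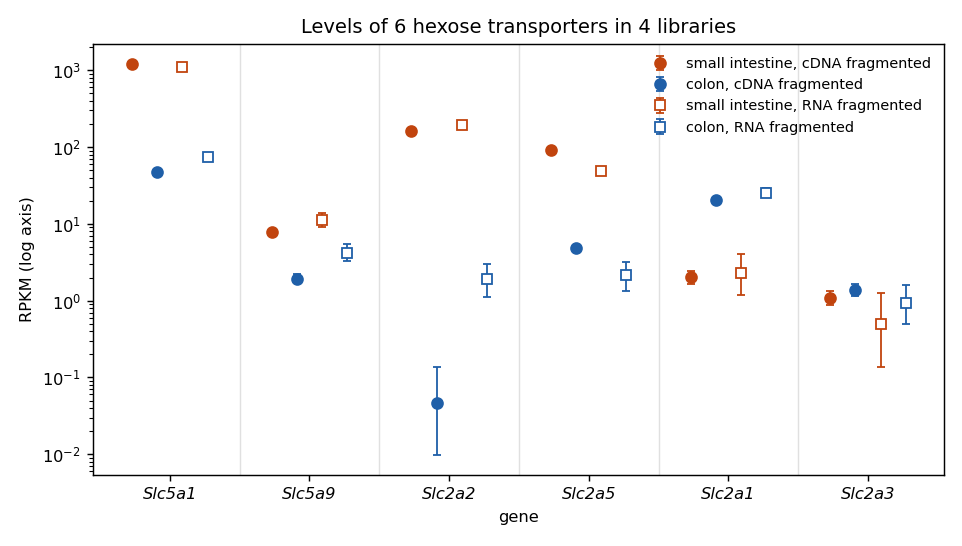
Level of each hexose transporter in the 4 libraries, in RPKM on a log axis, with exact Poisson 95% intervals. Slc5a1 has the highest level in every library, and the cDNA fragmented level of Slc2a2 reaches from 163 RPKM in small intestine down to 0.0471 RPKM in colon.

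Slc5a1, the sodium-coupled carrier of glucose and galactose at the brush border, had the highest level of the 6 transporters in every library. By cDNA fragmentation it held 107614 reads in small intestine, which gave 1218 RPKM (1210 to 1225), and 4646 reads in colon, which gave 47.7 RPKM (46.3 to 49.0). The RNA fragmented libraries gave 8956 reads and 1119 RPKM (1096 to 1143) in small intestine, and 1028 reads and 75.2 RPKM (70.7 to 79.9) in colon. Small intestine was thus the higher tissue in both protocols, and neither pair of intervals overlapped. The small intestine to colon ratio was 25.5 (24.8 to 26.3) by cDNA and 14.9 (14.0 to 15.9) by RNA fragmentation. Among all condensed genes, Slc5a1 ranked 73 and 39 by RPKM in the small intestine libraries of the cDNA and RNA fragmented protocols. In colon, where it was still the leading transporter of the 6, it ranked 1739 and 998.

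The mm9 locus of Slc5a1 is chr5:33446868-33505346 on the plus strand, with 15 exon blocks and 3931 exonic bases. All 15 blocks were higher in small intestine in both protocols. In the coding part the small intestine to colon ratio was 23.2 (22.4 to 24.1) by cDNA fragmentation, and in the 3′ untranslated part it was 29.9 (28.4 to 31.4). By RNA fragmentation the coding and 3′ untranslated ratios were 14.7 and 15.3. The smaller tissue ratio by RNA fragmentation was therefore seen in both parts of the transcript. Its 107614 small intestine reads by cDNA fragmentation began at 6179 start points, and the most reads at 1 of them was 92 (0.0855%). By RNA fragmentation 362 of 8956 reads (4.04%) began at 1 start point, so reads of that library were less evenly spread. When start points are counted in place of reads, the small intestine to colon ratio is 2.40 by cDNA and 5.04 by RNA fragmentation, and the gene then no longer passes the 3-fold rule by cDNA fragmentation. A transcript offers a limited number of start points, which are shared by any number of reads.

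Slc2a2, the facilitative carrier through which glucose, galactose and fructose leave the absorptive cell, had the widest gap between the tissues. By cDNA fragmentation it held 9413 reads in small intestine, 163 RPKM (160 to 166), and 3 reads in colon, 0.0471 RPKM (0.00971 to 0.138). The RNA fragmented libraries held 1019 reads in small intestine, 195 RPKM (183 to 207), and 17 reads in colon, 1.90 RPKM (1.11 to 3.04). The small intestine libraries were both high, while the colon libraries were both low and differed from each other. The small intestine to colon ratio was 3461 by cDNA fragmentation, with a counting interval from 1184 to 16784 because it rests on 3 colon reads. By RNA fragmentation the ratio was 102 (63.7 to 177). Insulin genes, which mark the pancreatic beta cell, another cell that uses Slc2a2, had 0 reads in all 4 libraries (Ins1 and Ins2). The other beta cell markers, Iapp and G6pc2, both had reads in colon. In small intestine 3 of the 4 markers had 0 reads in each protocol. The list of 4 summed to 1.98 and 7.32 RPKM in small intestine and colon by cDNA and to 0.707 and 2.51 RPKM by RNA fragmentation. Albumin (Alb), which marks the hepatocyte, a further user of this carrier, had 2 and 17 reads in small intestine and colon by cDNA and 0 and 3 by RNA fragmentation. The hepatocyte list of 5 genes summed to 5.26 and 69.3 RPKM by cDNA and to 1.87 and 17.4 RPKM by RNA fragmentation, most of it from transthyretin (Ttr), at 68.5 and 17.0 RPKM in colon. The part of these cell types in the level of Slc2a2 was not tested.

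The mm9 locus of Slc2a2 is chr3:28596825-28627282 on the plus strand, with 11 exon blocks and 2570 exonic bases, and all 11 blocks were higher in small intestine in both protocols. Of the 3 colon reads by cDNA fragmentation, 1 lay in the coding part and 2 in the 3′ untranslated part. Of the 17 colon reads by RNA fragmentation, 2 lay in the 5′ untranslated part, 7 in the coding part and 8 in the 3′ untranslated part. These 17 reads began at 17 different start points in 6 exon blocks, all matched the strand of the gene, and 10 of them had at most 1 color mismatch. They were thus spread along the transcript and were not copies of 1 fragment. The genomic stretches at which 3 of the coding colon reads were placed are printed because the low end of the tissue ratio rests on such single placements. Each is 30 bases of mm9 reference on the plus strand, in lower case throughout, since no base in them is singled out.
Slc2a2 exon block 8, chr3:28620647-28620676, 1 colon read by cDNA fragmentation with 2 mismatches: tttttcagacagctggcatcagccagcctg
Slc2a2 exon block 3, chr3:28607400-28607429, 1 colon read by RNA fragmentation with 0 mismatches: attaactatgacgtcaatggcacagacacc
Slc2a2 exon block 6, chr3:28617640-28617669, 1 colon read by RNA fragmentation with 0 mismatches: tacttggcctatctgctgtgccagctcttc

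Slc2a5, the fructose carrier of the brush border, was also higher in small intestine. By cDNA fragmentation it held 6397 reads in small intestine, 91.9 RPKM (89.7 to 94.2), and 373 reads in colon, 4.86 RPKM (4.38 to 5.38). In the RNA fragmented pair there were 310 reads, 49.2 RPKM (43.9 to 55.0), and 23 reads, 2.14 RPKM (1.35 to 3.20), in the same order. Both small intestine values lay above both colon values, and in each tissue the level by cDNA fragmentation was the higher. The small intestine to colon ratio was 18.9 (17.0 to 21.1) by cDNA and 23.0 (15.1 to 36.9) by RNA fragmentation, and these intervals overlapped.

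The mm9 locus of Slc2a5 is chr4:149493453-149518277 on the plus strand, with 14 exon blocks and 3096 exonic bases. Of these blocks, 13 were higher in small intestine by cDNA and 12 by RNA fragmentation, and 0 were higher in colon. The first 2 blocks, which together hold 601 untranslated bases, carried 0 and 3 of the 6397 small intestine reads by cDNA fragmentation and 0 and 2 of the 373 colon reads. They carried 0 reads in both RNA fragmented libraries. The annotated 5′ part of Slc2a5 was therefore almost without reads in tissue that carried the rest of the transcript. Without these 2 blocks, a setting chosen after the data had been seen, the levels were 114 and 6.00 RPKM in small intestine and colon by cDNA and 61.0 and 2.65 RPKM by RNA fragmentation. The division by length thus lowers every printed level of Slc2a5 by nearly the same factor, and the tissue ratio is hardly touched. Why the first 2 blocks carried so few reads was not tested.

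Slc5a9, the sodium-coupled carrier of mannose, fructose and glucose, lay just under the 3-fold rule. By cDNA fragmentation it held 765 reads in small intestine, 7.80 RPKM (7.26 to 8.38), and 209 reads in colon, 1.93 RPKM (1.68 to 2.21). RNA fragmentation gave 100 reads, 11.3 RPKM (9.17 to 13.7), and 64 reads, 4.22 RPKM (3.25 to 5.39), in the same order. Small intestine was above colon in both protocols without overlap of the intervals. The small intestine to colon ratio was 4.04 (3.46 to 4.73) by cDNA and 2.67 (1.93 to 3.71) by RNA fragmentation. With the penalty of 1 RPKM in the divisor these ratios became 2.66 and 2.16. The penalty thus decided the missing call by cDNA fragmentation, whereas by RNA fragmentation the ratio lay under 3 without it. It passed the rule by cDNA fragmentation when libraries were scaled by the median of ratios or by trimmed means (TMM), when start points were counted, with a penalty of 0.1 RPKM, or with no penalty. It passed by RNA fragmentation when only the last 1000 exonic bases were counted.

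The mm9 locus of Slc5a9 is chr4:111547982-111575401 on the minus strand, with 15 exon blocks and 4360 exonic bases. By cDNA fragmentation 14 blocks were higher on the side of small intestine and 0 on that of colon, and by RNA fragmentation 11 and 2. The first block, of 82 bases, carried 0 reads in all 4 libraries. The small intestine to colon ratio was 4.44 in the coding part and 3.84 in the 3′ untranslated part by cDNA fragmentation, and 2.09 and 3.21 by RNA fragmentation.

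Slc2a1, the facilitative carrier that supplies glucose to most dividing and barrier-forming cells, was the transporter that was higher in colon. By cDNA fragmentation it held 116 reads in small intestine, 2.01 RPKM (1.66 to 2.41), and 1320 reads in colon, 20.7 RPKM (19.6 to 21.8). By RNA fragmentation it held 12 reads, 2.29 RPKM (1.18 to 4.004), and 229 reads, 25.6 RPKM (22.4 to 29.1), in the same order. The libraries of each tissue were close to each other and the tissues did not overlap. The ratio of colon to small intestine was 10.3 (8.53 to 12.6) by cDNA and 11.2 (6.27 to 21.9) by RNA fragmentation. Markers of smooth muscle were higher in colon as well, with summed levels 3.70 and 8.29 times those of small intestine in the same order of protocols. The summed levels of neuron and glia markers were 2.49 and 3.71 times higher in colon, and those of endothelial markers 1.16 and 1.65 times. Leukocyte markers did not lean to colon by cDNA fragmentation, with summed ratios of small intestine to colon of 2.47 and 0.990. Over all genes the median log2 ratio of small intestine to colon, -0.36 and -0.42, was on the side of colon too. With the median of ratios it became -0.03 and -0.08. Erythrocyte markers, from cells that carry much GLUT1 protein in some species, summed to 1.47 and 2.81 times the small intestine level in colon, with 0 of them past the rule in either protocol. The part of these cell types in the level of Slc2a1 was not tested.

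The mm9 locus of Slc2a1 is chr4:118781350-118809934 on the plus strand, with 10 exon blocks and 2572 exonic bases, and 10 of 10 blocks were higher in colon in both protocols. The ratio of colon to small intestine was 10.2 in the coding part and 10.3 in the 3′ untranslated part by cDNA fragmentation. By RNA fragmentation these ratios were 17.2 and 7.22, on 12 small intestine reads in all. The 3′ untranslated part makes up 34.3% of the exonic length and held 61.0% of the colon reads by cDNA fragmentation and 32.3% by RNA fragmentation. Reads of the cDNA fragmented colon library were thus crowded towards the 3′ end of Slc2a1, and those of the RNA fragmented library were not.

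Slc2a3, the facilitative carrier of neurons and of several blood cells, was low in all 4 libraries. By cDNA fragmentation it held 96 reads in small intestine, 1.08 RPKM (0.874 to 1.32), and 136 reads in colon, 1.39 RPKM (1.16 to 1.64). RNA fragmentation gave 4 reads, 0.497 RPKM (0.135 to 1.27), and 13 reads, 0.944 RPKM (0.503 to 1.62), in the same order. The intervals of the tissues overlapped in both protocols. The small intestine to colon ratio was 0.779 (0.593 to 1.02) by cDNA and 0.526 (0.125 to 1.70) by RNA fragmentation, and it became 1.03 by cDNA fragmentation when libraries were scaled by the median of ratios. A difference between the tissues was not detectable at this depth. The interval by cDNA fragmentation leaves out ratios of colon to small intestine above 1.69. The mm9 locus of Slc2a3 is chr6:122677829-122692763 on the minus strand, with 10 exon blocks and 3957 exonic bases.

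**Figure D2:**
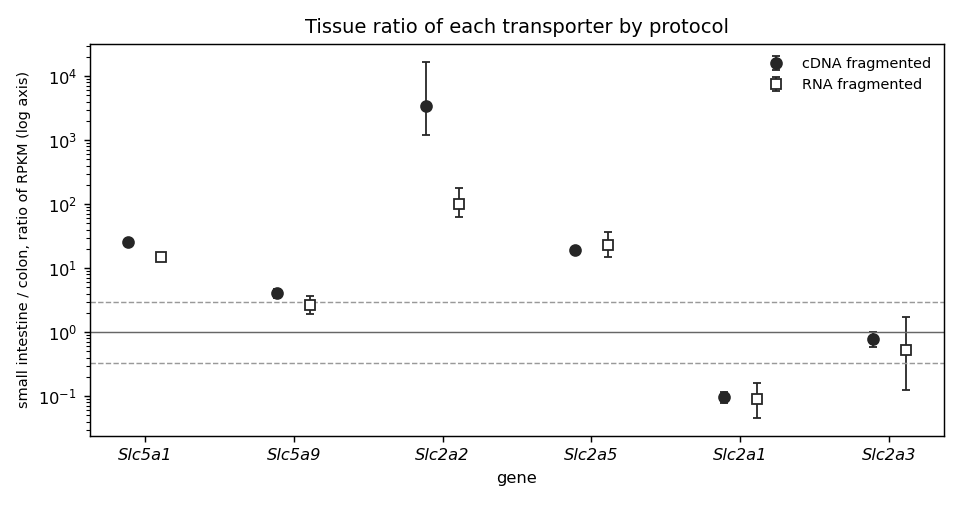
Ratio of small intestine to colon of each transporter on a log axis, with exact 95% counting intervals, for cDNA and RNA fragmented libraries. The gap between protocols is widest for Slc2a2, at 3461 against 102, and the intervals of Slc2a1 lie wholly on the colon side in both, around 0.0969 and 0.0896.

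The size of the tissue ratio differed between protocols for 3 of the 6 transporters beyond counting error. The difference of log2 ratios, cDNA minus RNA fragmented, was 5.08 (3.28 to 7.49) for Slc2a2, 0.78 (0.68 to 0.88) for Slc5a1 and 0.60 (0.07 to 1.12) for Slc5a9. It was 0.11 (-0.78 to 1.13) for Slc2a1, 0.57 (-1.19 to 2.68) for Slc2a3 and -0.28 (-0.98 to 0.35) for Slc2a5, and these intervals hold 0. For Slc2a2 the small intestine level was 1.20 (1.12 to 1.28) times higher by RNA than by cDNA fragmentation, whereas the colon level was 40.4 (11.7 to 215) times higher. The protocols thus parted mainly in the low tissue. The same held for Slc5a1, whose colon level was 1.58 (1.47 to 1.69) times higher by RNA fragmentation while its small intestine level was 1.09 (1.06 to 1.11) times higher by cDNA fragmentation. Slc5a9 was higher by RNA fragmentation in both tissues, 1.44 (1.16 to 1.78) times in small intestine and 2.18 (1.62 to 2.90) times in colon. For Slc2a5 the cDNA fragmented level was 1.87 (1.67 to 2.10) times higher in small intestine and 2.27 (1.49 to 3.63) times higher in colon. For Slc5a1 the sign of the difference turned when start points were counted, to -1.07, and for Slc2a1 it turned to -0.55 over the last 1000 exonic bases and to -0.20 with at most 1 mismatch. Over the last 1000 bases the difference for Slc5a9 was 0.037. The protocols also differ in kit, in instrument by the methods of the study, and perhaps in animals. By the labels they differ in RNA selection as well, polyadenylated against depleted of ribosomal RNA. These differences cannot be told apart.

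Other tissue-restricted genes were set beside Slc2a2 after its values had been seen. With at least 500 times the colon level and at least 1000 small intestine reads by cDNA fragmentation, 35 genes were found, of which 25 (Slc2a2 among them) had at least 100 small intestine reads by RNA fragmentation. All 25 had a smaller ratio by RNA fragmentation, between 52.3 and 376 with a median of 119. In the other direction 7 such genes were found, and their ratios of colon to small intestine by RNA fragmentation lay between 4.33 and 224. Selection on a large ratio in one protocol by itself favours a smaller one in the other. Because of that selection, the numbers of genes cannot show a trait that such genes share with Slc2a2. Lower depth also limits how large a ratio can become, but Slc2a2 itself had 17 colon reads by RNA and 3 by cDNA fragmentation. The part of depth in the smaller ratios was not tested. Lactase (Lct), for example, had 4 colon reads by cDNA and 89 by RNA fragmentation, and Apoa4, an apolipoprotein of absorptive cells, had 9 and 314. In small intestine, carbonic anhydrase 1 (Car1) had 0 reads by cDNA and 68 by RNA fragmentation. These genes were chosen after their values were seen. A gene of the SLC5 family outside the 6, Slc5a4a, had 13 colon reads by cDNA and 0 by RNA fragmentation. At the lower depth of the RNA fragmented colon library, this 0 cannot show a lower level. Whether such reads come from low expression in the tissue was not tested.

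Within each library, the transporters were ordered by RPKM, a level per length. In small intestine the order was Slc5a1, Slc2a2, Slc2a5, Slc5a9, Slc2a1 and Slc2a3 in both protocols. Slc5a1 made up 82.1% of the summed level by cDNA and 81.3% by RNA fragmentation, Slc2a2 made up 10.98% and 14.1%, and Slc2a5 made up 6.20% and 3.57%. The other 3 transporters each stayed at or below 0.818%. By RNA fragmentation the intervals of Slc2a1 and Slc2a3 overlapped, so the lowest pair could not be ordered in that library.

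In colon the leading pair was Slc5a1 and Slc2a1 in both protocols, with 62.2% and 27.0% of the summed level by cDNA and 68.4% and 23.3% by RNA fragmentation. By cDNA fragmentation Slc2a5, Slc5a9, Slc2a3 and Slc2a2 followed, at 6.34%, 2.52%, 1.81% and 0.0615%, with no overlap between neighbours. By RNA fragmentation Slc5a9, Slc2a5, Slc2a2 and Slc2a3 followed, at 3.84%, 1.94%, 1.73% and 0.859%. There the intervals of Slc2a5 and Slc2a2, and those of Slc2a2 and Slc2a3, overlapped. The order in the cDNA fragmented colon library also depended on which bases were counted, since over the last 1000 exonic bases Slc2a1 stood above Slc5a1 and Slc2a3 above Slc5a9. With start points, Slc2a2 stood above Slc2a5 in the RNA fragmented colon library. Among all condensed genes Slc2a1 ranked 3103 and 2930 in the colon libraries, and 8776 and 10057 in the small intestine libraries.

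**Figure D3:**
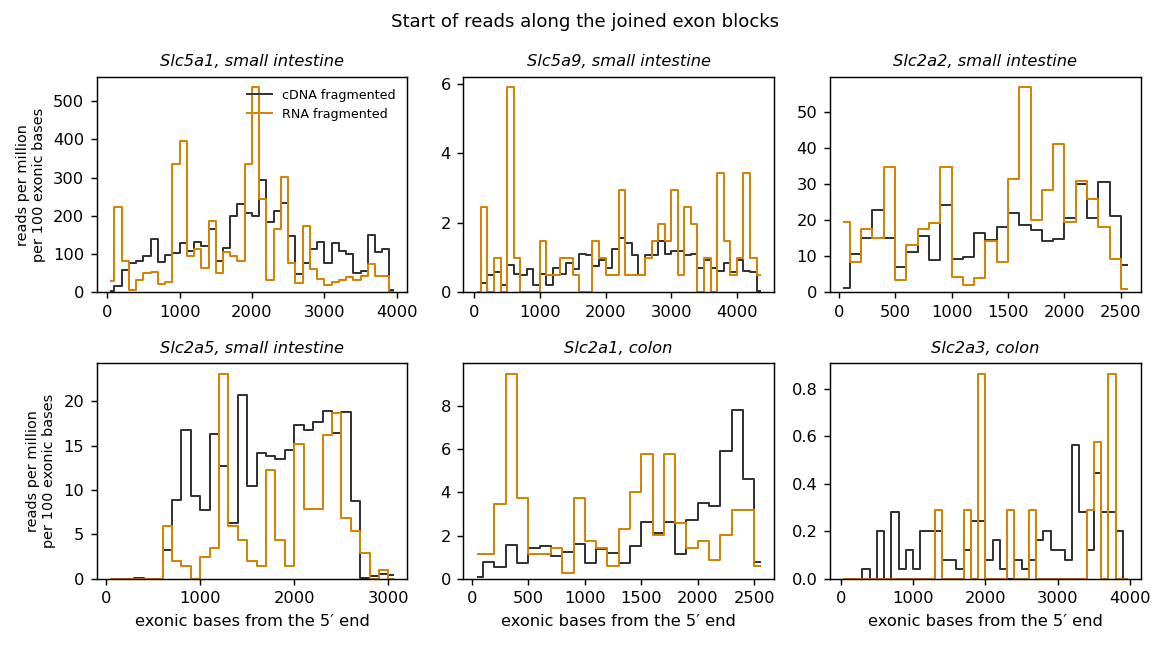
Reads per 1000000 uniquely placed reads that start in each bin of 100 exonic bases, against exonic bases from the 5′ end, for both protocols in the tissue with the higher level, with a vertical scale for each gene. Reads of Slc2a1 by cDNA fragmentation are crowded at the 3′ end, those of Slc5a1 are not, and the first 601 bases of Slc2a5 are nearly empty.

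The part of the transcript on which each value rests differed between protocols. The last 1000 exonic bases of Slc5a1 make up 25.4% of its length and held 20.4% and 18.2% of its reads in small intestine and colon by cDNA fragmentation. By RNA fragmentation they held 8.74% and 9.24%. In Slc2a1 they make up 38.9% of the length and held 66.1% of the colon reads by cDNA and 36.7% by RNA fragmentation. Slc5a1 showed no crowding at its 3′ end in any library, whereas Slc2a1 showed it by cDNA fragmentation. The last 1000 bases of Slc2a2, 38.9% of its length, held 48.1% and 51.6% of the small intestine reads by cDNA and RNA fragmentation. Those of Slc2a3, 25.3% of its length, held 44.8% and 43.4% of the reads in small intestine and colon by cDNA fragmentation. Crowding was thus not limited to Slc2a1 or to cDNA fragmentation. In Slc5a9 the last 1000 bases showed none by cDNA fragmentation, at 20.4% and 21.1% in small intestine and colon against 22.9% of the length. Its whole 3′ untranslated part did, since it makes up 49.6% of the length. It held 60.0% (56.5 to 63.4) and 63.2% (56.4 to 69.4) of these reads. The 5′ untranslated part of Slc5a1 stood at 154 RPKM in small intestine by cDNA and at 1336 RPKM by RNA fragmentation. By RNA fragmentation, in which 98.4% of reads in each tissue lay on the strand of the gene, 0 reads of the 6 transporters lay on the opposite strand. All stretches of 31 bases in the exons of the 6 transporters occurred only once among the deposited exons as an exact match. Near copies within the 3 mismatches allowed for reads were not searched.

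Promoter sequences, from 250 bases before to 50 bases after the annotated start, were taken from RefSeq on GRCm38.p6, a later build than the mm9 coordinates used for the reads. Entries were matched for 4 of the 6 transporters, Slc2a1, Slc2a2, Slc2a5 and Slc5a1. They were searched on both strands for the HNF1 core GTTAAT, the GATA site AGATAA, the TATA box TATAAA, the GC box GGGCGG and the E-box CACGTG, and no match of one motif overlapped a match of another. These 5 motifs stood in 7.10%, 11.2%, 13.6%, 35.7% and 7.15% of all 32851 promoters, in the same order. Slc5a1 held an E-box, Slc2a1 held GC boxes and, after its start site at +28, a TATA box, Slc2a5 held GC boxes only, and these letters of all 5 motifs were not in the window of Slc2a2. The share of G and C was 65.3% in Slc2a1, 48.0% in Slc2a2, 65.3% in Slc2a5 and 60.3% in Slc5a1, against a median of 52.7% over all promoters. Windows around the E-box, the GC boxes of Slc2a1 and the first GC box of Slc2a5 are printed, because they lie before the start of a transporter higher in colon and of transporters higher in small intestine. Each holds 30 bases on the plus strand, which is the strand of these genes. Capitals mark the match named on the line, the E-box as written and the GC box as its reverse complement, and positions count from the start site.
Slc5a1 E-box at -143, chr5:33104064-33104093: ccttttctgcctCACGTGggactccgtggc
Slc2a1 GC box at -45, chr4:119108688-119108717: cctctcagagtcCCGCCCcggacgtgctcc
Slc2a1 GC box at -20, chr4:119108713-119108742: gctccccaggccCCGCCCccttcgggccca
Slc2a5 GC box at -172, chr4:150119160-150119189: acgcatgcagctCCGCCCcctcccccgccc
Slc2a5 held further GC boxes at -160, which is the last 6 letters of its printed window in lower case, and at -154. By exact sequence match, all 4 start sites are the first base of the mm9 loci given above. The window of Slc2a5 thus precedes the first 2 exon blocks, which carried almost no reads in these libraries.

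Other genes of hexose handling were taken from 6 lists, in which 45 of 46 genes were found. By the 3-fold rule, 14 of them were on the side of small intestine and 3 on that of colon by cDNA fragmentation, and 14 and 5 by RNA fragmentation. Over all genes present, 2.73% and 3.19% passed by cDNA and 3.71% and 6.52% by RNA fragmentation, in the same order. The counts towards colon depended on scaling and became 0 and 1 with the median of ratios, and 0 and 2 with TMM. Those towards small intestine stayed at 14 under both scalings and fell to 10 and 13 with start points. By RNA fragmentation, 13 also passed towards small intestine with at most 1 mismatch.

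Among the other sodium-coupled sugar transporters, 3 of 6 were higher in small intestine in both protocols, with a median log2 ratio of 6.47 by cDNA and 6.10 by RNA fragmentation over the 4 present genes. Slc5a11, a carrier of inositol and glucose, held 3220 and 2 reads in small intestine and colon by cDNA fragmentation and 213 and 4 reads by RNA fragmentation. Slc5a4a, a close relative of Slc5a1 in the mouse, held 1472 and 13 reads by cDNA fragmentation, a ratio of 125 (72.8 to 235). By RNA fragmentation it held 182 and 0 reads and was at least 104-fold higher in small intestine, with a floor of 3 reads in the colon library. Slc5a4b, its neighbour in the family, had ratios of 117 (71.0 to 210) and 76.9 (25.8 to 378). The tissue ratios of these 3 genes exceeded that of Slc5a1 in both protocols, with no overlap of the intervals. Their levels in small intestine, 31.1 to 61.2 RPKM, were far below that of Slc5a1. Slc5a3, a carrier of inositol, passed the rule towards colon by RNA fragmentation only, at 4.25 (3.25 to 5.63) against 2.31 (2.15 to 2.49) by cDNA fragmentation. With the penalty its RNA fragmented ratio was 3.08, just past the rule, and the call was lost with the median of ratios, TMM, start points and without the 10 top genes. Over the last 1000 bases it passed by cDNA fragmentation as well.

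Among the 8 other facilitative transporters, 2 were higher in small intestine in both protocols. Their median log2 ratio was -1.09 by cDNA and -1.48 by RNA fragmentation, below the medians over all genes. Slc2a7, a carrier of the intestine, held 1112 reads and 31.3 RPKM in small intestine against 5 reads and 0.128 RPKM in colon by cDNA fragmentation. By RNA fragmentation it held 36 and 0 reads and was at least 20.5-fold higher in small intestine. Slc2a9, a carrier of urate, had levels of 11.7 and 1.68 RPKM by cDNA and 15.5 and 4.09 RPKM by RNA fragmentation. Its smaller ratio with the penalty was 3.05, just past the rule. Towards colon, 0 passed by cDNA fragmentation and 3 (Slc2a6, Slc2a10 and Slc2a13) by RNA fragmentation, at 3.36, 3.45 and 3.37 with the penalty, just past the rule. None of these calls held in every setting: the median of ratios removed all 3, TMM those of Slc2a10 and Slc2a13, at most 1 mismatch that of Slc2a6, and the last 1000 bases that of Slc2a13. The insulin-responsive carrier Slc2a4 had ratios of colon to small intestine of 2.54 (2.16 to 2.99) and 3.46 (2.16 to 5.78) and did not pass, though by RNA fragmentation it passed with at most 1 mismatch, with a penalty of 0.1 RPKM and with no penalty.

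**Figure D4:**
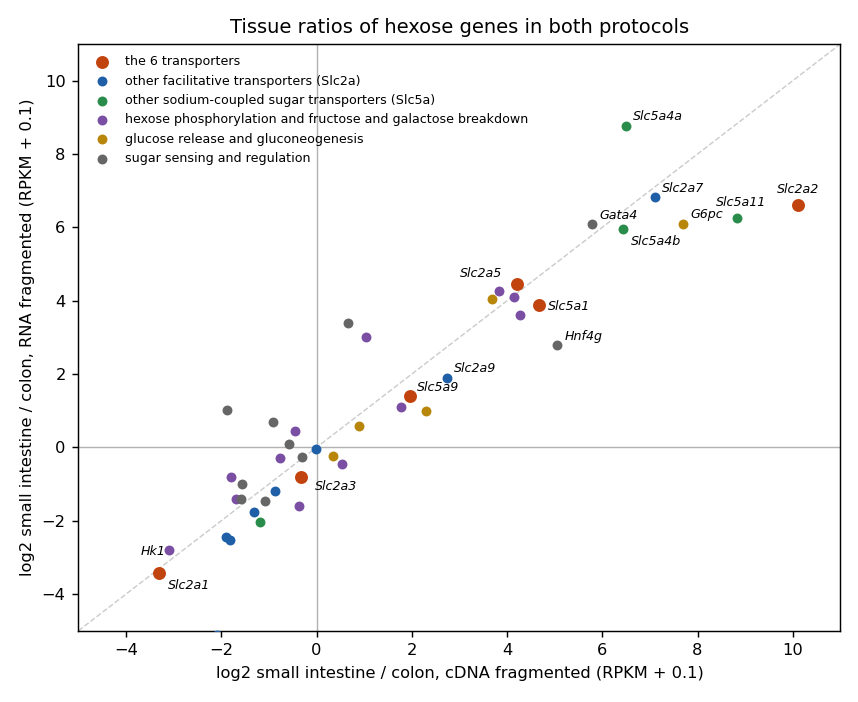
Log2 ratio of small intestine to colon by cDNA fragmentation (horizontal) against RNA fragmentation (vertical), 0.1 RPKM added to each level, for the 6 transporters and other genes of hexose handling. Slc2a2, Slc5a1 and Slc2a5 lie at the upper right, and Slc2a1 lies at the lower left with Hk1.

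In the list of 12 genes of hexose phosphorylation and of fructose and galactose breakdown, 4 passed towards small intestine in each protocol, 2 and 1 towards colon, and the median log2 ratio was 0.08 in both. Ketohexokinase (Khk), which acts on fructose after its uptake, stood at 518 and 36.5 RPKM in small intestine and colon by cDNA fragmentation and at 197 and 10.0 RPKM by RNA fragmentation. Tkfc, a kinase of the triose formed from fructose, had ratios of 18.1 (15.7 to 21.0) and 17.2 (13.7 to 21.9). The interval of Slc2a5 overlapped that of Tkfc by cDNA fragmentation and those of Khk and Tkfc by RNA fragmentation. Hexokinase 1 (Hk1), which traps glucose in the cell, was the only gene of these lists past the rule towards colon in both protocols, at 10.1 (7.53 to 13.9) and 7.17 (4.69 to 11.5), though by cDNA fragmentation it no longer passed with either of the other scalings. The intervals of its colon to small intestine ratios overlapped those of Slc2a1. Galm, which interconverts the forms of galactose, passed towards small intestine by cDNA fragmentation only, at 3.44 (3.30 to 3.59) against 2.14 (1.80 to 2.55). Hkdc1, a hexokinase, passed by RNA fragmentation only, at 8.17 (6.61 to 10.2) against 2.05 (1.91 to 2.20).

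Of 5 genes of glucose release and gluconeogenesis, 3 were higher in small intestine by cDNA and 2 by RNA fragmentation, and 0 were higher in colon. Glucose-6-phosphatase (G6pc), which frees glucose for export, held 1042 and 0 reads by cDNA fragmentation and was at least 383-fold higher in small intestine. By RNA fragmentation it held 231 and 5 reads, a ratio of 79.0 (33.3 to 245), whose interval overlapped that of Slc2a2. Fructose-1,6-bisphosphatase (Fbp1) had ratios of 13.1 (10.97 to 15.7) and 18.4 (6.68 to 70.5). Pck1, the enzyme of the first committed step of gluconeogenesis, stood at 92.0 and 72.7 RPKM by cDNA and at 78.1 and 91.2 RPKM by RNA fragmentation, and did not pass.

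Of 12 genes of sugar sensing and regulation found, 2 passed towards small intestine and 1 towards colon by cDNA fragmentation, and 3 and 0 by RNA fragmentation. The transcription factor Gata4 held 665 and 5 reads by cDNA and 245 and 5 reads by RNA fragmentation, with ratios of 147 (62.5 to 453) and 83.7 (35.4 to 260). Hnf4g, a nuclear receptor of absorptive cells, had ratios of 33.5 (31.3 to 35.8) and 6.90 (6.12 to 7.79). Its relative Hnf4a differed little, at 1.24 (1.21 to 1.28) and 1.19 (1.13 to 1.25) in favour of colon. The median over all genes lay on the same side in both protocols. Mlxipl, which encodes the sugar-responsive factor ChREBP, stood at 4.59 and 2.88 RPKM by cDNA and at 35.2 and 3.27 RPKM by RNA fragmentation, so it passed in the second protocol only. Cdx2, a factor of intestinal identity, turned direction between protocols, from 3.68 (3.37 to 4.02) times higher in colon by cDNA to 2.01 (1.72 to 2.36) times higher in small intestine by RNA fragmentation. The sweet taste receptor subunit Tas1r2 had 1 read in the 4 libraries together.

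For each transporter, the genes with the most similar pattern were named by the Euclidean distance of centred log2(RPKM + 0.1) over the 4 libraries, among 12407 genes with at least 100 reads. The nearest to Slc2a2 were Mme (distance 0.37), Cyp3a11 (0.46) and Cyp2b10 (0.80). The nearest to Slc5a1 were Proz (0.39), Agmo (0.44) and Naaladl1 (0.49), and to Slc2a5 they were Prap1 (0.46), Arg2 (0.49) and Slc25a45 (0.51). For Slc2a1 they were Slc35a1 (0.27), Hgfac (0.27) and Cfd (0.29). For Slc5a9 they were Slc35c2 (0.17), Edn3 (0.20) and Sgpl1 (0.21), and for Slc2a3 they included Ociad1 (0.04) and Pes1 (0.08). The distances were smallest for Slc2a3 and Slc5a9, which had the tissue ratios nearest to 1. With 4 libraries, a small distance describes these libraries only.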

How the data were processed

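The authors deposited match files with the positions, strands and mismatch counts of single reads, their own reports of read numbers, and position tables of exons and junctions. No normalized values were used. The authors had matched the 35 colors of each read to the mm9 RefSeq exons and to exon-exon junctions, allowing 3 mismatches, and had kept reads with 1 placement. Uniqueness was thus judged among exons and junctions only. Total reads were 77504263 and 83302412 (cDNA fragmented, small intestine and colon) and 36419942 and 37466674 (RNA fragmented), of which 29.0%, 29.8%, 5.59% and 9.28% were uniquely placed.

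Reads were counted on condensed genes with 3 bases of tolerance at exon borders. RPKM used all uniquely placed reads. Presence meant above 0.01 RPKM with at least 2 start points in at least 1 tissue. Intervals were exact Poisson for counts, exact conditional for ratios and differences of log2 ratios, and Wilson for shares. A count of 0 was set against 3 reads per library. Alternatives were median-of-ratios and TMM scaling, libraries without their 10 top genes, at most 1 mismatch, start points, junction reads added, shared exon blocks left out, reads on the gene strand only (RNA fragmented), the last 1000 bases, a penalty of 0.1 RPKM, no penalty with at least 10 reads, and, chosen after the data had been seen, Slc2a5 without its first 2 exon blocks. The transporters and gene lists were chosen with earlier results of these data known. Genes named from lists passed the 3-fold rule the same way in both protocols with at least 20 reads in 1 library of each, at most 4 per list, and other named genes were chosen after their values were seen. Python 3.11.15, NumPy 2.4.6, SciPy 1.17.1 and pandas 2.3.3 were used. The 3-fold rule and the ratio intervals were tested on simulated independent Poisson counts, for genes with at least 20 expected reads. That test does not cover lower counts or amplified reads. Some genes of the lists and patterns are not reported here.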

Additional observations from a re-analysis of the deposited data

Results flagged for a closer look

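Reads placed across exon-exon junctions were not counted in the levels and ratios reported, other than in the library totals and in 1 alternative that added them, and those of 4 transporters stood above the 3 reads that a count of 0 allows. Slc5a1 had 1064 junction reads in small intestine and 36 in colon by cDNA fragmentation, and 150 and 22 by RNA fragmentation. Of these, 336 (31.6%) and 10 (27.8%) joined neighbouring exon blocks by cDNA fragmentation, and 118 (78.7%) and 17 (77.3%) did so by RNA fragmentation. Slc2a2 had 75 junction reads in small intestine by cDNA and 9 by RNA fragmentation, of which 18 and 4 joined neighbouring blocks. Slc2a5 had 57 in small intestine by cDNA fragmentation, 20 of them on neighbouring blocks. Slc5a9 had 5 in the same library, 1 of them on neighbouring blocks. These counts are given as values, and whether they mark spliced transcripts was not tested.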

How the results depend on the processing

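No paired analysis was run. Within a protocol a tissue has 1 library, so none was left out, and a fit over both protocols with protocol as a block, which leaves 1 residual degree of freedom, was not made. No interval here covers variation between animals. Depth limits Slc2a3 and the low tissue of Slc2a1 and Slc2a2 most. Counting on the gene's strand alone was not run for the cDNA fragmented libraries, which keep no strand (48.2% and 48.3% of reads on it).

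Of 42 recomputed ratios of the transporters by cDNA fragmentation, 28 moved by less than the counting interval, and of 42 by RNA fragmentation, 35 did, not counting the settings on shared exon blocks, of which the transporters had 0, and on the gene strand by RNA fragmentation, where they had 0 reads on the opposite strand. One turned direction, the ratio of small intestine to colon of Slc2a3 by cDNA fragmentation, which became 1.03 with the median of ratios. Counting intervals are wider where reads are fewer, so these tallies do not compare the stability of the protocols. Scaling by the median of ratios raised log2 ratios by 0.40 (cDNA) and 0.34 (RNA), and TMM by 0.35 and 0.32. By cDNA fragmentation these scalings gave small intestine to colon ratios of 0.128 and 0.124 for Slc2a1, 25.0 and 24.1 for Slc2a5, 33.8 and 32.6 for Slc5a1, and 5.34 and 5.15 for Slc5a9. By RNA fragmentation Slc5a1 moved to 18.9 and 18.6, and to 16.6 without the 10 top genes. With start points the cDNA ratios were 0.123 (Slc2a1), 1107 (Slc2a2), 8.10 (Slc2a5) and 2.40 (Slc5a1), and the RNA ratios were 34.4 (Slc2a2), 13.3 (Slc2a5) and 5.04 (Slc5a1). Over the last 1000 bases, the cDNA ratio of Slc5a1 was 28.6 and the RNA ratio of Slc5a9 was 3.81. Slc2a2, Slc2a5 and Slc2a1 kept their calls under the alternatives tried. Slc5a1 lost its call by cDNA fragmentation with start points (2.37 with the penalty) and kept it otherwise, and Slc5a9 gained one under 5 settings by cDNA and 1 by RNA fragmentation.

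The difference of log2 ratios between protocols turned sign for Slc2a1, to -0.55 over the last 1000 bases and -0.20 with at most 1 mismatch, and for Slc5a1, to -1.07 with start points. Over the last 1000 bases it was 1.02 for Slc5a1 and 0.037 for Slc5a9. For all genes, a penalty of 0.1 RPKM gave 694 towards small intestine and 1350 towards colon by cDNA fragmentation, against 450 and 525, and 1066 and 2441 by RNA fragmentation, against 560 and 983. The median of ratios gave 585 and 347 (cDNA) and 756 and 630 (RNA) towards small intestine and colon, and TMM gave 559 and 372 (cDNA) and 745 and 648 (RNA), so the balance turned towards small intestine. Of other hexose genes towards colon, the median of ratios gave 0 and 1, TMM gave 0 and 2, and the smaller penalty gave 8 by cDNA fragmentation, against 3 and 5. The causes were not tested.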

Other observations

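Markers of another part of the intestine were read beside the transporters. Fabp6, the bile acid binding protein of the distal small intestine, had ratios of small intestine to colon of 36.6 (32.7 to 41.1) by cDNA and 59.8 (28.6 to 150) by RNA fragmentation. Slc10a2, the bile acid uptake carrier of the same region, stood at 13.3 and 29.0 RPKM by cDNA and at 49.2 and 102 RPKM by RNA fragmentation, and passed in neither direction. Transthyretin (Ttr), a carrier of thyroid hormone, was 16.2 (13.2 to 20.01) and 9.07 (3.37 to 34.3) times higher in colon. Leukocyte markers passed towards small intestine for 2 of 6 genes by cDNA and 0 by RNA fragmentation.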
